A study of Rattus norvegicus with 6 samples.

Results

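The genes described here encode the nuclear subunits of the mitochondrial respiratory chain and of ATP synthase. They were taken by name from the gene count table as every locus outside the mitochondrial genome named Nduf with a subunit letter and number, Sdha to Sdhd, Uqcr, Cyc1, Cox4 to Cox8, or Atp5. The rule found 90 of the 34225 loci, and it used no measured value. Of these, 39 belong to complex I, 4 to complex II, 10 to complex III, 17 to complex IV and 17 to complex V, and the 3 muscle isoforms of complex IV (Cox6a2, Cox7a1 and Cox8b) were kept apart. RNA came from back skin of Sprague-Dawley rats, with 2 libraries in each of 3 groups: rats left untreated, rats given gefitinib by mouth at 80 mg/kg each day until a rash appeared, and rats given afatinib in the same way at 30 mg/kg. Both drugs inhibit the epidermal growth factor receptor (EGFR). The labels give no vehicle group, age, sex or number of days to the rash. They do not say whether the 2 libraries of a group come from separate animals, so p-values measure only the spread between these libraries, which may be technical.

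The respiratory chain passes electrons from NADH (complex I, Nduf genes) and succinate (complex II, Sdh genes) through complex III (Uqcr genes and Cyc1) to oxygen at complex IV (Cox genes), and complex V (Atp5 genes) uses the resulting proton gradient to make ATP. Several small subunits of complex IV exist as a body-wide form and a form made mainly in heart and skeletal muscle, among them Cox6a1 and Cox6a2, and Cox8a and Cox8b. Back skin of rats can carry the panniculus carnosus, a thin sheet of skeletal muscle under the dermis, and muscle fibres are rich in mitochondria.

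The promoters of 71 members could be matched by symbol and chromosome to RefSeq (build GRCr8), as the 250 bases before to 50 after each gene's start. Letters were searched on both strands. The core of the NRF1 motif (GCGCA and GCGC with any single base between them) was in 18.3% of these promoters against 4.25% of all 33469 promoters of the same length, and the core of the GABP motif (CCGGAAG) in 26.8% against 8.75%. The ERR motif (AAGGTCA) was in 14.1% against 4.61%. For motifs linked to muscle genes, the E-box CAGCTG was in 16.9% against 15.1% and the MEF2 motif in 1.41% against 3.29%. Each is a match of letters and not a measured binding site. The promoter of Cox4i1, a body-wide isoform, holds 2 GABP matches and 1 E-box, so the E-box is not particular to the muscle isoforms. The motifs searched share no match with each other in the 4 promoters below. They are examples and do not stand for all members: Cox5a holds none of these motifs, and Cox7b only an E-box. The promoter of Cox6a1, the body-wide partner of Cox6a2, was not matched. These 4 are shown since the muscle isoforms Cox6a2 and Cox8b hold motifs other than those of the body-wide isoform Cox8a and the ATP synthase subunit Atp5mc2. All are on the minus strand, 5′ to 3′, with the matches in capitals. The Cox6a2 promoter (chr1:192219667-192219966) holds an E-box 107 bases and a MEF2 match 50 bases before the start.
Cox6a2: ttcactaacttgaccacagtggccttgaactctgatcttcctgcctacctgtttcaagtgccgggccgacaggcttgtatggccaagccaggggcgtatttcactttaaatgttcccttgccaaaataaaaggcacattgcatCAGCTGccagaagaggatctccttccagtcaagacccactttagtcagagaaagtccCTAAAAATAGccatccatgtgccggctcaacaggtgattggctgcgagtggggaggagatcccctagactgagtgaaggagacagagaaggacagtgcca
The Cox8b promoter (chr1:205408224-205408523) holds 2 E-boxes.
Cox8b: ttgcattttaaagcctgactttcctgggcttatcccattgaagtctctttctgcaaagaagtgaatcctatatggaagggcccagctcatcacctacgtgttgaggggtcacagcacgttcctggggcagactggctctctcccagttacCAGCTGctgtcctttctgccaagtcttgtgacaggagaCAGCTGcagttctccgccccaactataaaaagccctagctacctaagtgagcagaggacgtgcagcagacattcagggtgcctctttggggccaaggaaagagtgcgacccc
The Cox8a promoter (chr1:213833574-213833873) holds 2 GABP matches before the start and 1 ERR match after it, each as its reverse complement.
Cox8a: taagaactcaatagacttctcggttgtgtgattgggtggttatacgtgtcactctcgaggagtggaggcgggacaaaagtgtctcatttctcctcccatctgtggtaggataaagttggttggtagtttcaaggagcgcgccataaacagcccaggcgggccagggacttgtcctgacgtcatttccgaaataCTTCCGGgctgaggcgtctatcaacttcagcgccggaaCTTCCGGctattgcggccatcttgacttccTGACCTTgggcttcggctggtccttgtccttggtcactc
The Atp5mc2 promoter (chr7:135678169-135678468) holds 1 NRF1 match.
Atp5mc2: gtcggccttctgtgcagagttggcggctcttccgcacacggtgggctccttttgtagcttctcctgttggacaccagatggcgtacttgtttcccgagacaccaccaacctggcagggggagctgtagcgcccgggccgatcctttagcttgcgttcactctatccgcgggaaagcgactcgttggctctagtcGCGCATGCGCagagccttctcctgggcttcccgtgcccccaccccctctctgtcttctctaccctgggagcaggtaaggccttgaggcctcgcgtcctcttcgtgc

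Library totals ran from 17206456 to 22086673 counts, and their scaling factors by the trimmed mean of M-values (TMM) from 0.717 to 1.39. The keratin Krt5, which marks basal keratinocytes, was present in every library, at levels that differed by group. It had 410 and 251 CPM (counts scaled to a common depth, here and below by TMM) in untreated skin. In gefitinib skin it had 1134 and 1222 CPM and in afatinib skin 1148 and 1765 CPM. Krt5 does not stand for all keratinocyte markers. Over 7 of them, Krt5 included, the median log2 change was 0.67 under gefitinib and 1.36 under afatinib. Under gefitinib the change was 1.83 for Krt5 and −0.05 for Krt1. Skeletal muscle RNA was a large share of these samples: 17 fibre markers, among them Acta1, Ckm and Myh1, held 21.4% and 20.1% of the counts of the untreated libraries. They held 5.40% and 9.38% of the gefitinib libraries, 16.1% of afatinib library 1 and 5.73% of afatinib library 2. By this share afatinib library 1 lay nearer to the untreated pair and afatinib library 2 nearer to the gefitinib pair. This did not hold for all genes: Krt5, at 1148 CPM in afatinib library 1, lay far above the untreated pair there. The counts and medians under afatinib, the muscle isoforms and Sdhc are given below with and without each afatinib library. Of the 90 members, 84 passed the filter on low counts among 16398 loci tested. Of the other 6, Cox7b2, Cox8c, Cox6c-ps1 and the Ndufa10l1 copy on chromosome 6 had 0 counts in all libraries, a pseudogene named Ndufs6 on chromosome 2 had at most 1 count per library, and Cox7a1 had 0 and 19 counts in the untreated libraries, 0 and 0 in the gefitinib libraries and 1 and 0 in the afatinib libraries. Ndufa10l1, Ndufv3, Uqcrb and Cox6b1 each name 2 loci, 7 members are entries of a single exon, and 20 members overlap another locus, 13 of them on the opposite strand. Reads of such loci may be split between copies or neighbours, since the strand used in counting was not given in the labels or headers.

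In untreated back skin the muscle isoform Cox6a2 had the highest level per gene length of all members, at 2662 ± 552 FPKM (fragments scaled by gene length and depth; SD, n = 2). It was followed by Atp5f1e, the epsilon subunit of ATP synthase, at 2406 ± 608 FPKM, Atp5f1b, its catalytic beta subunit, at 2305 ± 387 FPKM, Cox8b at 2289 ± 642 FPKM and Cox7c at 1851 ± 428 FPKM. These neighbours in the order did not differ beyond their SD. The body-wide partners of the muscle isoforms were far lower on the same FPKM scale, Cox6a1 at 205 and 185 and Cox8a at 216 and 162 in the untreated libraries.

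In gefitinib skin the fitted levels of almost the whole respiratory chain were lower than in untreated skin, but edgeR called no single member lower. Of the 84 members tested, 80 had a log2 change below 0 against untreated, where 48.4% of all loci did. The members' median log2 change was −0.79 beside 0.04 over all loci, which is 1.78-fold lower relative to that background. The 2 gefitinib libraries lay below both untreated libraries for 72 members (33.9% of all loci) and above them for 4 (38.8%). By edgeR's quasi-likelihood test with Benjamini-Hochberg adjustment, 0 members fell (5.45% of all loci did) and 2 rose (12.3%), Cox6a1 and Cox6b2. At an unadjusted p under 0.05, 6 members were lower (15.9% of all loci). DESeq2 called 7 members lower (12.6% of all loci) and 3 higher (15.9%), with Cox8a beside Cox6a1 and Cox6b2, and limma-voom called 0 lower (5.26%). The number of members called lower changed with the afatinib libraries, which enter the shared estimate of the spread: without afatinib library 1 the count was 29 (12.7% of all loci) and without afatinib library 2 it was 34 (15.1%). In bulk tissue, fewer cells of a type and less RNA per cell cannot be told apart. Scaling by library size alone moved the median of all loci to 0.73 and that of the members to −0.10, with 54 members below 0, and left the distance between them at −0.83. Among the named members, the change on that scale was above 0 for Ndufs5, Ndufa4l2, Uqcrq, Cox4i2, Cox7a2l, Cox7b, Cox6b1 on chromosome 2 and Atp5pb, whose values below are on the TMM scale.

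**Figure D1:**
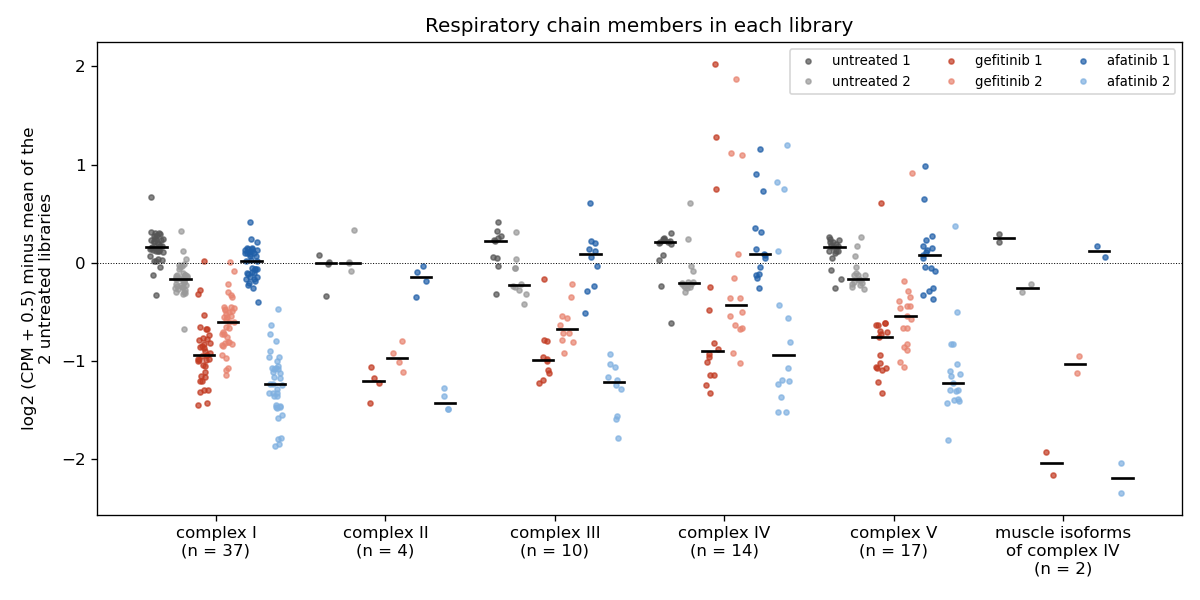
Each point is 1 tested member in 1 library, as log2 (CPM + 0.5) minus the mean of the 2 untreated libraries (vertical axis), by complex (horizontal axis), with a bar at the median. The medians of both gefitinib libraries and of afatinib 2 lie below those of the untreated pair in every complex, while the medians of afatinib 1 lie near 0.

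On the TMM scale the shift was seen in each complex. The median log2 change under gefitinib was −0.76 in complex I (37 members, all below 0), −1.07 in complex II (4, all below 0), −0.84 in complex III (10, all below 0), −0.67 in complex IV (14, 11 below 0) and −0.68 in complex V (17, 16 below 0). The muscle isoforms Cox6a2 and Cox8b had the lowest median, at −1.48. No difference between complexes was tested. By library, the members' median log2 difference from the untreated mean was 0.17 and −0.17 in the untreated libraries, −0.96 and −0.60 in the gefitinib libraries, and 0.06 and −1.24 in the afatinib libraries.

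All 4 subunits of succinate dehydrogenase (complex II), which also works in the citrate cycle, had lower CPM in both gefitinib libraries than in both untreated libraries. Sdhc, which anchors the enzyme in the membrane, had 434 and 431 CPM in the untreated libraries, 161 and 200 in the gefitinib libraries and 379 and 153 in the afatinib libraries. Its untreated pair was nearly equal, and every treated library lay below it. The log2 change under gefitinib was −1.26 ± 0.46 (SE), with an adjusted p of 0.0927 by edgeR's quasi-likelihood test, and under afatinib −0.70 ± 0.45 with an adjusted p of 0.405. Without afatinib library 1 the afatinib value was −1.50 (adjusted p 0.0223), and without afatinib library 2 it was −0.25 (0.790). Sdhb, the iron-sulfur subunit, had 391 and 396 CPM, then 168 and 195, then 384 and 140. Here afatinib library 1 almost reached the untreated libraries. The log2 changes under gefitinib were −1.12 for Sdhb, −1.03 for Sdha, the flavoprotein, and −0.97 for Sdhd, the other membrane anchor. Sdha differed within the untreated pair, at 338 and 539 CPM.

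Complex I members named by the smallest p were Ndufb11, Ndufa9 and Ndufa10l1 on chromosome 9. Ndufb11, an accessory subunit of the membrane arm, had 447 and 385 CPM in untreated, 152 and 198 in gefitinib and 366 and 115 in afatinib skin. The gefitinib pair lay below the untreated pair, and afatinib library 2 was the lowest of all. The log2 change under gefitinib was −1.25 ± 0.53 (adjusted p 0.134 in edgeR). Ndufa9 had a change of −0.96 and Ndufa10l1 of −0.76. Ndufs5, the member of complex I nearest to no change, had 174 and 115 CPM, then 113 and 142, then 168 and 85.3, so that all groups overlapped. Its log2 change under gefitinib was −0.18, and it turned positive with library size scaling. Ndufa4, which the rule counts by its name here although it is now assigned to complex IV, had 757 and 609 CPM, 304 and 388 CPM, and 650 and 244 CPM, with a change of −0.98 under gefitinib. Its paralog Ndufa4l2 was far lower and stayed between 11.0 and 19.1 CPM in all libraries. The FPKM of Ndufa4 was 47.7 and 58.5 times that of Ndufa4l2 in untreated, 23.4 and 38.2 times in gefitinib and 67.6 and 26.7 times in afatinib skin.

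In complex III, Uqcrc2, a core subunit, had 208 and 324 CPM in untreated, 119 and 137 in gefitinib and 181 and 137 in afatinib skin. All 4 treated libraries lay below the untreated pair. Its log2 change was −1.05 ± 0.34 under gefitinib (adjusted p 0.0693 in edgeR's quasi-likelihood test) and −0.74 ± 0.34 under afatinib (adjusted p 0.252). Uqcrfs1, the Rieske iron-sulfur subunit, and Uqcrc1, the other core subunit, had changes of −0.98 and −0.84 under gefitinib. Uqcr11 had the highest level per length in this complex, at 1190 FPKM in untreated skin, and a change of −0.96. Uqcrq, the member nearest to no change, had 566 and 386 CPM, then 417 and 367, then 713 and 204. Its groups overlapped, and afatinib held both the highest and the lowest library.

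In complex V, Atp5f1a, the alpha subunit of the catalytic head, had 1695 and 2429 CPM in untreated, 972 and 970 in gefitinib and 1572 and 755 in afatinib skin. The gefitinib pair was nearly equal and lay well below the untreated pair. Its log2 change under gefitinib was −1.09 ± 0.52 (adjusted p 0.171 in edgeR). Atp5mc1, which encodes the rotor ring's c subunit, had a change of −1.11, and Atp5f1e of −0.93. Atp5pb on chromosome 2, nearest to no change in the mean of both inhibitors, stood at only 3.72 to 12.3 CPM. Its locus overlaps others on the opposite strand. Atp5if1 went the other way from its complex. It encodes the inhibitor of ATP synthase rather than a subunit, and had 89.2 and 68.2 CPM in untreated, 119 and 147 in gefitinib and 122 and 102 in afatinib skin. All treated libraries lay above the untreated pair. The log2 change was 0.76 ± 0.28 under gefitinib (adjusted p 0.0970 in edgeR) and 0.51 under afatinib (0.331).

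**Figure D2:**
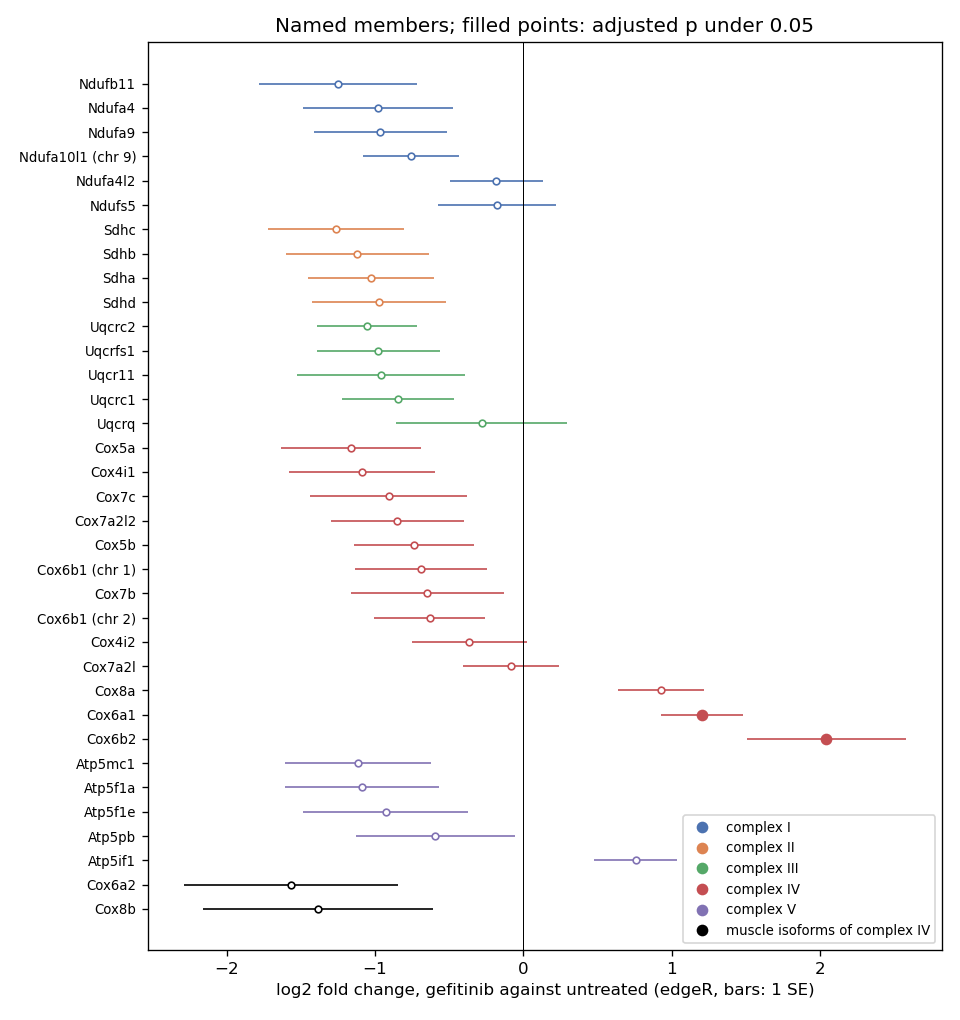
Log2 fold change of each named member in gefitinib against untreated skin (horizontal axis, edgeR), with bars of 1 SE, coloured by complex, and filled where the adjusted p was under 0.05. Cox6a1 and Cox6b2 are the filled points, to the right of 0, and all but 4 of the points lie to the left.

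Complex IV held 3 of the 4 members with a fitted change above 0 under gefitinib, and most of its other members had changes like those of the other complexes. Cox4i1, the body-wide form of subunit 4, had 1409 and 1042 CPM in untreated, 512 and 643 in gefitinib and 1014 and 469 in afatinib skin. Both gefitinib libraries lay below the untreated pair. The change under gefitinib was −1.09 ± 0.49 (adjusted p 0.152 in edgeR). Cox5a had a change of −1.16, Cox5b of −0.74, Cox7c of −0.91 and Cox7b of −0.65. The locus named Cox7a2l2, on chromosome 8, had −0.85; RefSeq places the gene of that name on another chromosome, so its identity is uncertain. Cox6b1 on chromosome 1 had −0.69, and its entry on chromosome 2, of a single exon, −0.63. Cox4i2, the form of subunit 4 known from lung, was at 4.0 to 6.92 CPM in all libraries, with a change of −0.36. Cox7a2l, which joins complexes into supercomplexes, had 182 and 139 CPM, then 134 and 169, then 175 and 118, and its groups overlapped. Its change of −0.08 turned positive, to 0.60, with library size scaling.

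The body-wide partners of the muscle isoforms had higher levels in all treated libraries than in the untreated pair. Cox6a1 had 112 and 100 CPM in untreated, 258 and 230 in gefitinib and 199 and 187 in afatinib skin. No treated library overlapped the untreated pair. Cox6a1 rose under gefitinib, with a log2 change of 1.21 ± 0.27 (adjusted p 0.0289 in edgeR's quasi-likelihood test), and in the mean of both inhibitors, by 1.04 (adjusted p 0.0328). Under afatinib alone its change was 0.87 (adjusted p 0.122). The call under gefitinib was lost without any 1 of the untreated or gefitinib libraries. Each of those fits leaves 1 library in a group, and far fewer of all loci pass there than with all 6. Cox6a1 overlaps Gatc on the same strand, a gene at 21.9 to 55.2 CPM whose change under gefitinib was −0.40 (adjusted p 0.467). Cox8a had 106 and 79.1 CPM, then 155 and 197, then 153 and 154. Again no treated library overlapped the untreated pair. Its change was 0.93 ± 0.29 under gefitinib (adjusted p 0.0647 in edgeR, 0.0250 in DESeq2) and 0.73 under afatinib (0.199). Without afatinib library 1 or 2 it passed the test under gefitinib (0.0349 and 0.0428).

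The muscle forms Cox6a2 and Cox8b had lower fitted levels, which did not pass edgeR's test over all 6 libraries. Cox6a2 had 1437 and 1064 CPM in untreated, 277 and 568 in gefitinib, and 1292 and 300 in afatinib skin. The gefitinib pair lay below the untreated pair, while afatinib library 1 lay within the untreated range and afatinib library 2 below it. The change was −1.57 ± 0.72 under gefitinib (adjusted p 0.158 in edgeR) and −0.65 under afatinib (0.620). Cox8b had 867 and 577 CPM, then 186 and 367, then 795 and 139, in the same arrangement. Its change was −1.39 ± 0.78 under gefitinib (adjusted p 0.231) and −0.63 under afatinib (0.659). Both isoforms passed the test under gefitinib without afatinib library 1 (adjusted p 0.0344 for Cox6a2 and 0.0440 for Cox8b in edgeR) and without afatinib library 2 (0.0316 and 0.0393), and Cox6a2 also in DESeq2 (0.0478). Under afatinib, leaving out library 1 gave −2.06 for Cox6a2 (adjusted p 0.0444) and −2.38 for Cox8b (0.0283), and leaving out library 2 gave −0.0093 and 0.08.

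Set against each other per length, the FPKM ratio of Cox6a2 to Cox6a1 was 14.9 and 12.3 in untreated, 1.24 and 2.86 in gefitinib and 7.51 and 1.85 in afatinib skin. The ratio of Cox8b to Cox8a was 12.7 and 11.3, then 1.86 and 2.89, then 8.09 and 1.40. All 4 treated libraries lay below both untreated libraries in both ratios, afatinib library 1 included. The mean log2 ratio of Cox6a2 to Cox6a1 differed from untreated by −2.85 under gefitinib and −1.86 under afatinib. For Cox8b to Cox8a the differences were −2.37 and −1.83. No ratio of Cox7a1 was computed, given its few counts. A ratio within a library does not depend on scaling between libraries. No test was made of these ratios, and an exact two-sided permutation test of 2 against 2 libraries could not go below 0.333.

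**Figure D3:**
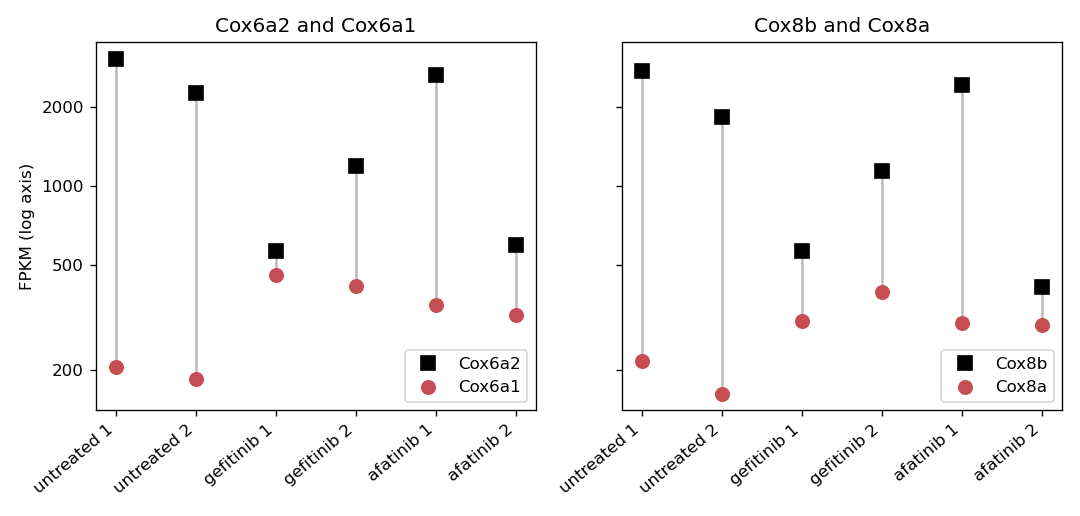
FPKM of the muscle isoforms (squares) and body-wide isoforms (circles) of subunits 6a and 8 in each library, on a log axis, with a line joining each pair. The gap is widest in the untreated libraries and narrowest in gefitinib 1 for Cox6a2 and in afatinib 2 for Cox8b.

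Cox6b2, a form of subunit 6b known from testis, was low but rose most of all members under gefitinib. It had 15 and 53 counts in untreated, 231 and 185 in gefitinib and 73 and 127 in afatinib skin, or 1.04 and 3.08, then 9.06 and 8.10, then 4.74 and 4.90 CPM. The untreated pair was the lowest, though it differed within itself more than either treated pair. The log2 change was 2.04 ± 0.54 under gefitinib (adjusted p 0.0416 in edgeR's quasi-likelihood test) and 1.21 under afatinib (0.238). Leaving out any 1 of the untreated or gefitinib libraries ended the call. Those fits leave 1 library in a group, and far fewer of all loci pass in them.

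Under afatinib, compared with the same untreated libraries, the members' fitted values were again mostly lower. Of 84 members, 79 had a log2 change below 0, against 45.0% of all loci, with a median of −0.49. That median rested on which afatinib library was used: it was −1.25 without afatinib library 1 and −0.04, with 48 of 85 members below 0, without afatinib library 2. By edgeR's quasi-likelihood test 0 rose (3.60% of all loci did) and 0 fell (0.372%). An unadjusted p under 0.05 was reached by 2 members, where 3591 of the 16398 loci did. Neither of the 2 was lower (5.91% of all loci were). DESeq2 called 1 higher (9.11% of all loci), Cox6a1, and 0 lower (3.04%). By limma-voom 0 rose (0.195% of all loci) and 0 fell (0.0122%). The afatinib pair lay below the untreated pair for 22 members (21.8% of all loci), a share near the background, and above it for 4 (31.5% of all loci), a share well under it. The pair itself disagreed: afatinib library 1 was above afatinib library 2 for 81 of 84 members, where 46.1% of all loci were, and afatinib library 2 was the lowest of all 6 libraries for 72, where 16.8% of all loci were. Without afatinib library 1, 39 members fell (7.87% of all loci) with the remaining afatinib library assumed to vary like the other groups. Without afatinib library 2, 0 fell (0.0296%).

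In the mean of both inhibitors against untreated, 1 member rose (11.0% of all loci), Cox6a1, and 0 fell (4.93%), with 7 lower at an unadjusted p under 0.05 (14.4%). DESeq2 called 5 lower (10.8% of all loci) and limma-voom 0 lower (3.86%). Without afatinib library 1, 62 fell (15.1% of all loci), and without afatinib library 2, 0 fell (6.23%). The call of Cox6a1 was lost without any 1 of the untreated or gefitinib libraries, where fewer of all loci passed too. The median was −0.63, and 80 of 84 were below 0 (47.1% of all loci). For 20 members all 4 treated libraries lay below the untreated pair (18.8% of all loci) and for 4 they lay above it (27.2%). Afatinib and gefitinib differed in dose, and their days of dosing may have differed. Between them edgeR, DESeq2 and limma-voom called 0 members (0%, 0.195% and 0% of all loci). In edgeR 0 members had an unadjusted p under 0.05, where 946 of the 16398 loci did. Of 84 members 8 were below 0 (46.8% of all loci), and the afatinib pair lay below the gefitinib pair for 4 (19.9%) and above it for 2 (17.1%). The members' median log2 difference was 0.28, with a median SE of 0.45 for a single member, and a missed threshold at this SE does not show that the inhibitors act alike. Relative to all loci it was 0.24, and −0.46 without afatinib library 1.

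Summed over all 90 members, the chain took 2.53% and 2.44% of the counts of untreated, 2.12% and 2.27% of gefitinib and 2.86% and 1.87% of afatinib libraries. On the TMM scale the summed CPM were 35320 and 31303, then 16403 and 20396, then 31983 and 13441. The 2 scales thus gave differences of unlike size: the group mean of the untreated pair was 1.13 times that of the gefitinib pair as a share of counts and 1.81 times as summed CPM. The 3 muscle isoforms held 0.165% and 0.128% of counts in untreated, 0.0597% and 0.104% in gefitinib and 0.187% and 0.0612% in afatinib libraries. The skeletal muscle markers given above had a median log2 change of −2.06 under gefitinib and −1.34 under afatinib over 17 genes. None of the 17 passed edgeR's test in either comparison. Their adjusted p ran from 0.0544 to 0.266 under gefitinib and from 0.217 to 0.606 under afatinib. Their share and that of the muscle isoforms lay below the untreated pair in both gefitinib libraries and in afatinib library 2. In afatinib library 1 the markers' share (16.1%) lay below both untreated libraries and the isoforms' share above both. The part of muscle in the members' shift was not tested. Slow muscle fibre markers had a median of −3.32 over 7 genes under gefitinib, with summed levels of 8541 and 9469 CPM in untreated, 1424 and 2689 in gefitinib and 13115 and 2720 in afatinib skin, and under afatinib the median was −1.06. Most of that sum is Mb, the oxygen-binding myoglobin, with 11845 CPM in afatinib library 1, where Myh7, the slow myosin heavy chain, had 160 CPM against 367 and 1269 in the untreated libraries. All of the 7 slow fibre markers but Mb fell under gefitinib (adjusted p 0.00986 to 0.0210 in edgeR), where 5.45% of all loci did. Under afatinib only Tnnt1 did (0.0461), where 0.372% of all loci did. Of 5 brown fat markers, Ucp1, the defining one, had 0 counts in every library, and the others summed to 119 to 476 CPM over all 6 libraries. Most of that sum was Cpt1b, with 329 and 451 CPM in untreated, 79.8 and 140 in gefitinib and 209 and 86.7 in afatinib skin. Its log2 change under gefitinib was −1.82 (adjusted p 0.0479 in edgeR). Like the muscle fibre markers, it was lower in both gefitinib libraries and afatinib library 2 than in afatinib library 1. Whether its RNA came from muscle was not tested. Cidea and Ppargc1a were at 1.53 to 10.2 CPM, and the change of Elovl3 under gefitinib was 1.39 (adjusted p 0.0474 in edgeR).

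**Figure D4:**
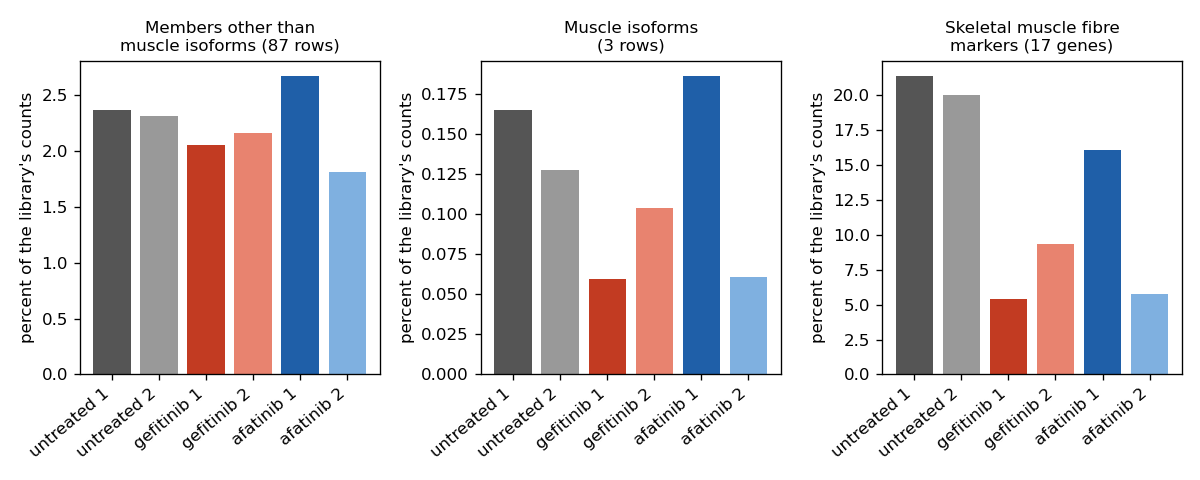
Percent of each library's counts (vertical axes, from 0) held by the members other than muscle isoforms, the 3 muscle isoforms and the 17 skeletal muscle fibre markers, 1 bar per library. The muscle markers held 21.4% and 20.1% in the untreated libraries and 5.40% to 16.1% in the treated libraries, while the other members held 1.81% to 2.67%.

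Lists of other mitochondrial genes also had medians below 0 under gefitinib, and no difference from the members was tested. The median log2 change under gefitinib was −0.57 over 15 complex I assembly factors and −0.43 over 28 assembly factors of complexes II to V, with 0 called. It was −0.85 over 12 citrate cycle genes, 0 called and all below 0, and −0.73 over the 13 chain genes of the mitochondrial genome, 0 called. Both gefitinib libraries lay below both untreated libraries for 10 complex I assembly factors, 16 of the other assembly factors, 11 citrate cycle genes and 2 genes of the mitochondrial genome (33.9% of all loci). The 13 genes of the mitochondrial genome summed to 172603 and 81610 CPM in untreated and 58350 and 89840 in gefitinib skin. The untreated pair thus differed widely for them, and gefitinib library 2 lay above untreated library 2. Among 15 regulators of mitochondrial biogenesis the median was −0.29, and 1 fell (5.45% of all loci), which is near the background: Ppargc1b, a transcriptional coactivator, had 10.8 and 12.3 CPM in untreated, 3.88 and 2.89 in gefitinib and 9.62 and 10.1 in afatinib skin. Only the gefitinib pair lay low, with a change of −1.77 (adjusted p 0.0188 in edgeR); under afatinib the change was −0.23. Between afatinib and gefitinib its log2 difference was 1.54, and 0 of the 15 regulators were called there. Under gefitinib both libraries lay below the untreated pair for 7 regulators (33.9% of all loci) and above it for 5 (38.8%). Those 5 were Pprc1 (log2 change 0.94), Nrf1 (0.90), Gabpb1 (0.83), Gabpa (0.61) and Tfb1m (0.41), none of them called. Of 9 genes for cytochrome c, carriers and pores, 1 rose (12.3% of all loci), again near the background: Slc25a5, the body-wide ADP/ATP carrier. It had 72.5 and 77.9 CPM in untreated, 401.01 and 363 in gefitinib and 180 and 319 in afatinib skin, with changes of 2.34 (adjusted p 0.0136) and 1.73 (0.0490) in edgeR. Slc25a4, the carrier known from heart and muscle, had 4939 and 4005 CPM, then 1118 and 1699, then 3579 and 987, with a change of −1.67 under gefitinib (adjusted p 0.138). Slc25a5 was thus lowest in the untreated pair, and Slc25a4 was low in both gefitinib libraries and in afatinib library 2.

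Within the untreated pair, the members differed by gene length. As log2 (CPM + 0.5) of untreated library 2 minus untreated library 1, the median was −0.43 over 25 members under 500 bases, −0.42 over 25 members of 500 to 800 bases, −0.26 over 21 members of 800 to 1500 bases and 0.14 over 13 longer members. The medians of all loci in the same length ranges were −0.15, −0.13, −0.06 and 0.04. Ndufs1, the largest subunit of complex I, with 2474 bases, had 229 and 359 CPM in the untreated libraries, while Ndufb2, a small subunit with 456 bases, had 353 and 242 CPM. Across the 84 members, Pearson's r of this difference with log2 length was 0.49, a description over genes that share the same 2 libraries. It was −0.29 between the gefitinib libraries and 0.14 between the afatinib libraries. In the afatinib pair the members' difference was large at all lengths, with medians from −1.30 to −1.05.

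**Figure D5:**
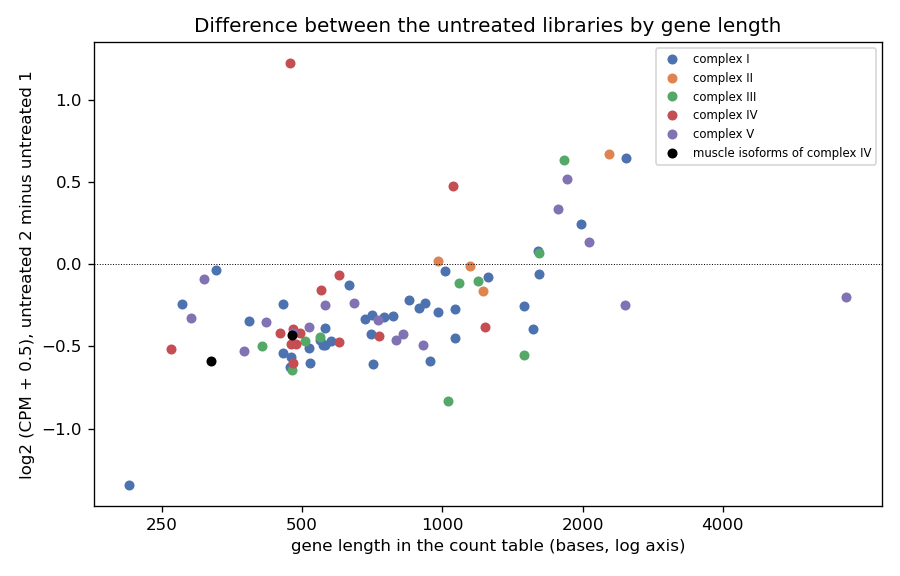
Log2 (CPM + 0.5) of untreated library 2 minus untreated library 1 (vertical axis) against gene length in the count table (horizontal axis, log scale), 1 point per tested member, coloured by complex. Most members under 1500 bases lie below 0, and 9 of the 13 longer members lie above it.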

How the data were processed

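The authors deposited a table of unscaled read counts by gene for all 6 libraries. The authors' FPKM values were checked to equal each deposited count over gene length, a DESeq2 size factor and a constant, so a scaling between libraries is built in. Per the submitters' processing notes the tools were DESeq2 1.16.1, HISAT2 2.0.5 and featureCounts 1.5.0-p3, with no step stated. Genome build, annotation and strandedness: not given in the sources used here. RNA was extracted with Trizol and made into TruSeq libraries, per the labels' protocols.

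Loci were filtered with filterByExpr at its defaults, and 16398 entered edgeR's quasi-likelihood fit (version 4.0.16, R 4.3.3, TMM, 1 term per group, all 6 libraries, 3 residual degrees of freedom). Two-sided p-values were adjusted (Benjamini-Hochberg) over all loci of a comparison, with a threshold of 0.05. The fit was tested on simulated data with the same spread for every gene, which does not test the spread between these libraries. Unnamed loci, at 1.68% to 2.54% of counts, stayed in. DESeq2 1.42.0, limma-voom (limma 3.58.1), library size scaling, no filter, a replicate block and leaving out each library were the alternatives. Named were the isoform pairs, Sdha to Sdhd and, per complex, the 3 members of smallest p in the mean of both inhibitors, the member of highest FPKM, the member nearest to no change, and called members opposite to their complex. Ndufs1, Ndufb2, Atp5f1b and the promoter of Atp5mc2 were chosen after values were seen. The members and lists were chosen with earlier results of these data known. The gefitinib and afatinib comparisons share the untreated libraries. The labels name no molecular identifiers, so a count carries counting error beside the spread between libraries, and 0 counts allow up to 3 counts, or 0.116 to 0.207 CPM.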

Additional observations from a re-analysis of the deposited data

How the results depend on the processing

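Of 561 values of 51 gene results under the alternatives, 469 kept their direction and side of the threshold, 63 newly passed it, 15 no longer passed and 14 changed sign. With library size scaling, members called higher were 4 under gefitinib (18.7% of all loci), 1 under afatinib (7.62%) and 4 in their mean (19.1%), and the changes under gefitinib became 0.53 for Ndufa4l2, 0.30 for Cox4i2, 0.0450 for Cox6b1 on chromosome 2, 0.60 for Cox7a2l, 0.0282 for Cox7b, 0.51 for Ndufs5, 0.42 for Uqcrq and 0.0810 for Atp5pb. DESeq2 called 7 lower under gefitinib and 1 higher under afatinib, with 3 higher (15.2% of all loci) and 5 lower in the mean. With no filter, 2 were lower under gefitinib (8.68% of all loci), and 2 higher (11.1%) and 3 lower (7.72%) in the mean. Leaving out 1 library gave 0 to 3 higher and 0 to 34 lower under gefitinib, 0 to 39 lower under afatinib, and 0 to 3 higher and 0 to 62 lower in the mean. It also moved the changes under gefitinib from −0.45 to 0.15 for Ndufa4l2, −0.34 to 0.12 for Cox7a2l (0.0229 without gefitinib library 1), −0.44 to 0.16 for Ndufs5 and −0.53 to 0.0214 for Uqcrq, each positive without untreated library 1. Cox8b under afatinib ranged from −2.38 to 0.0828, and the members' median difference between afatinib and gefitinib, relative to all loci, from −0.46 to 0.82, by which afatinib library was left out. The causes were not tested. With the replicate block, 0 members were called higher under gefitinib (9.77% of all loci) and 0 in the mean (8.60%). Under gefitinib the adjusted p in edgeR with that block was 0.0517 for Cox6a1 and 0.0503 for Cox6b2. The labels do not say whether the numbers pair the libraries. Deviations of same-numbered libraries correlated over loci at 0.0331, 0.0374 and −0.174, which cannot decide this with 2 libraries a group. Groups of 2 libraries limit all tests here.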
